A study of Homo sapiens with 6 samples.

Results

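Amino acid transporters of the solute carrier (SLC) families were examined in 67R cells with and without knockdown of BCAT1. The members were all genes of the deposited table named as a member of SLC1A, SLC3A, SLC6A, SLC7A, SLC36A, SLC38A or SLC43A, which gave 59 of 60664 genes in 7 families. The 67R line was raised from the EGFR-mutant lung adenocarcinoma line NCI-H1975 by exposure to rising doses of ASK120067, a third-generation EGFR tyrosine kinase inhibitor. The siNC group received a control siRNA without a target and the siBCAT1 group an siRNA against BCAT1, and 3 RNA-seq libraries were made for each, 6 in all. Every library therefore came from one resistant derivative of one cell line that had taken up an siRNA, and the labels give neither the dose, the time after transfection nor the presence of inhibitor. The methods of the study use the name siBCAT1 for one of their siRNAs. The labels do not say whether the 3 libraries of a group were separate cultures, so the p-values measure the spread between these libraries, which may be technical. An exact permutation test of 3 libraries against 3 (two-sided) has a smallest p of 0.1, so single genes were judged by the model over all genes.

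BCAT1 is the cytosolic aminotransferase that reversibly passes the amino group of leucine, isoleucine and valine to α-ketoglutarate, forming glutamate. From isotope tracing, the paper proposes that BCAT1 in the resistant cells might speed synthesis of these amino acids more than their breakdown. It also reports less α-ketoglutarate after BCAT1 knockdown, without a significant fall of these amino acids. Cells take up these branched-chain amino acids (BCAAs) and other essential amino acids largely through exchangers made of the glycoprotein heavy chain SLC3A2 and a light chain of the SLC7 family, which trade intracellular glutamine for leucine outside. Glutamine in turn enters through sodium-coupled carriers such as SLC1A5 and the SLC38 family, and a further set of carriers moves amino acids out of lysosomes, where the kinase mTORC1 senses them. Many of these genes are induced by the transcription factor ATF4 when amino acids run short or when unfolded proteins accumulate.

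Expression was given as TPM, a transcript abundance corrected for the length of the gene and set against the whole library, so that levels can be compared between genes. TPM values hold no read counts, and the depth of each library is unknown. Each library had a value above 0 for 23152 to 25043 genes. Fold changes were taken on the scale of log2(TPM + 1), which understates the change of weakly expressed genes, and were tested with limma over the 14286 genes that reached a mean of 1 TPM. A gene is called where the Benjamini-Hochberg adjusted p over all of these genes was under 0.05. BCAT1 itself (ENSG00000060982) stood at 42.7, 42.2 and 29.8 TPM in siNC and at 8.78, 7.10 and 8.0 TPM in siBCAT1, and fell by 2.12 on the log2 scale (SE 0.15, limma adjusted p = 0.000272). Of the 6 epithelial markers, KRT7, KRT8, KRT18 and KRT19 reached between 28.7 and 1347 TPM. CDH1 stood at 12.5 to 28.8 TPM in siNC and at 0.85 to 4.30 TPM in siBCAT1, and EPCAM, which was low, went the other way, from 0.91 to 1.55 TPM in siNC and from 1.96 to 2.61 TPM in siBCAT1. The summed level of the 6, nearly all of it keratin, was 2546 to 2948 TPM in siNC and 1647 to 1935 TPM in siBCAT1. The lung alveolar markers NKX2-1, NAPSA, SFTPB and SFTPC summed to at most 0.42 TPM. Of the leukocyte markers CD3E was listed at 0 throughout and PTPRC in 5 libraries, while CD68, which is not limited to leukocytes, stood at 29.1 to 37.0 TPM in siNC and at 52.1 to 60.0 TPM in siBCAT1. Endothelial markers stayed at or under 0.04 TPM, and of the fibroblast markers DCN was listed at 0 while COL1A2 stood at 178 to 249 TPM. The part of the levels of the keratins, CDH1, EPCAM or CD68 in the changes of the transporters was not tested. In RNA from whole cultures, fewer cells that express a gene and less of its mRNA per cell cannot be told apart.

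A small set of carriers made up nearly all of the transporter mRNA in these cells. Of the 59 members, 21 had a mean of at least 1 TPM, 16 of these reached 10 TPM and 4 reached 100 TPM. The other 38 lay under 1 TPM, and 7 of them were listed at 0 in all 6 libraries. The members were separated into expressed and nearly silent genes by a wide gap, from 5.84 TPM for SLC7A11, the lowest tested member, down to 0.992 TPM for SLC7A7 and 0.937 TPM for SLC6A16 just under the limit. All members together summed to 1275, 1345 and 1287 TPM in siNC and to 1246, 1247 and 1296 TPM in siBCAT1, which is 0.125% to 0.135% of each library. The sums of the groups overlapped. The 6 highest members, SLC3A2, SLC7A5, SLC1A5, SLC43A3, SLC38A2 and SLC7A6, held between 78.5% and 81.8% of the members' TPM in each library. SLC3A2, SLC7A5 and SLC1A5 were also high among all genes, since only 3.13%, 3.46% and 5.31% of the tested genes had a higher mean. The 38 members under 1 TPM added between 4.31 and 7.65 TPM per library. In the order of mean level, 6 of the 20 neighbouring pairs stood in the same order in all 6 libraries. Another 12 were in mixed order within at least 1 group. Some of these 12 kept 1 order in the other group, as SLC3A2 lay above SLC7A5 in every siBCAT1 library. The other 2 pairs, SLC38A7 with SLC43A2 and SLC43A2 with SLC6A9, stood in one order in every siNC library and in the other in every siBCAT1 library.

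**Figure D1:**
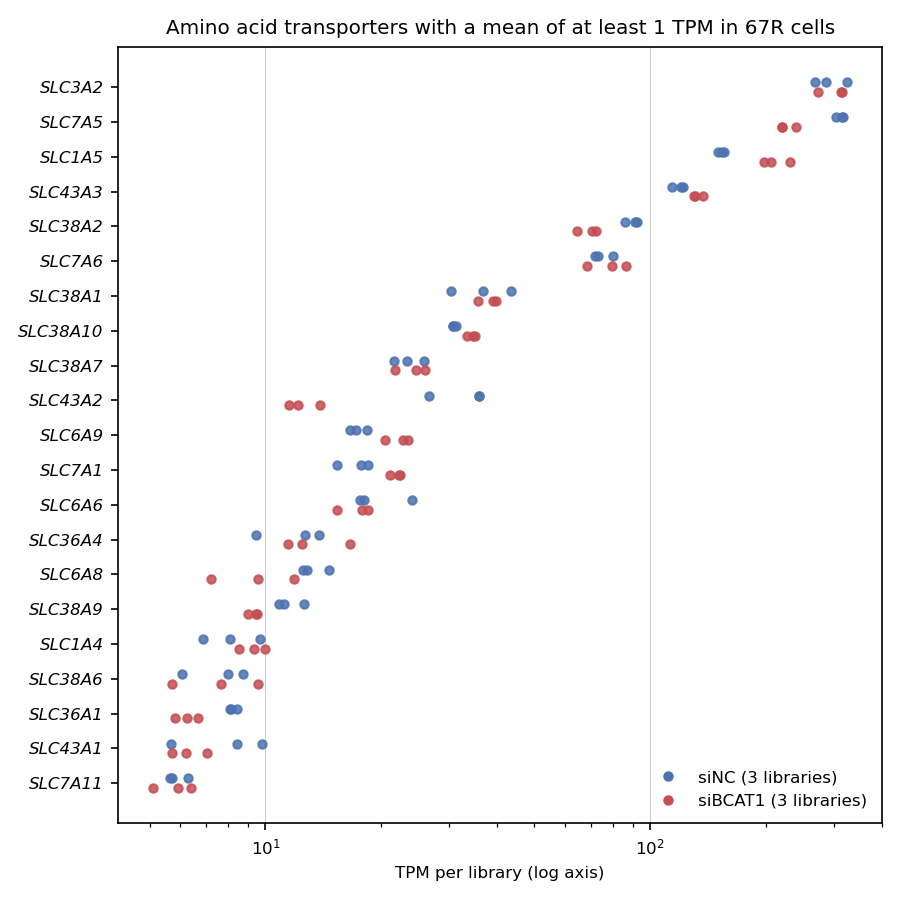
Expression of the 21 transporters with a mean of at least 1 TPM, ordered by mean level, on a log axis of TPM; each point is 1 library, blue for siNC and red for siBCAT1. The points of SLC7A5, SLC38A2, SLC43A2 and SLC36A1 lie lower in siBCAT1 and those of SLC1A5, SLC6A9 and SLC7A1 lie higher, without overlap, while those of SLC3A2 and SLC7A11 are mixed.

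After BCAT1 knockdown 7 of the 21 tested members were called (33.3%), where 27.1% of all tested genes were called. SLC1A5, SLC6A9 and SLC7A1 rose, and 16.7% of all tested genes were called higher. SLC43A2, SLC7A5, SLC38A2 and SLC36A1 fell, and 10.4% of all tested genes were called lower. The groups did not overlap for 11 members, 5 higher and 6 lower in siBCAT1, against 44.1% of all tested genes. These shares lie near the background. Members called higher numbered 1 without siNC replicate 1, without siBCAT1 replicate 1 and without siBCAT1 replicate 3. The changes went both ways and most were small. The median log2 fold change was 0.03 over the members and 0.04 over all tested genes, the median absolute value was 0.19 over the members and 0.24 over all tested genes, and SLC43A2 was the only tested member whose level changed by at least 1 on the log2 scale.

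**Figure D2:**
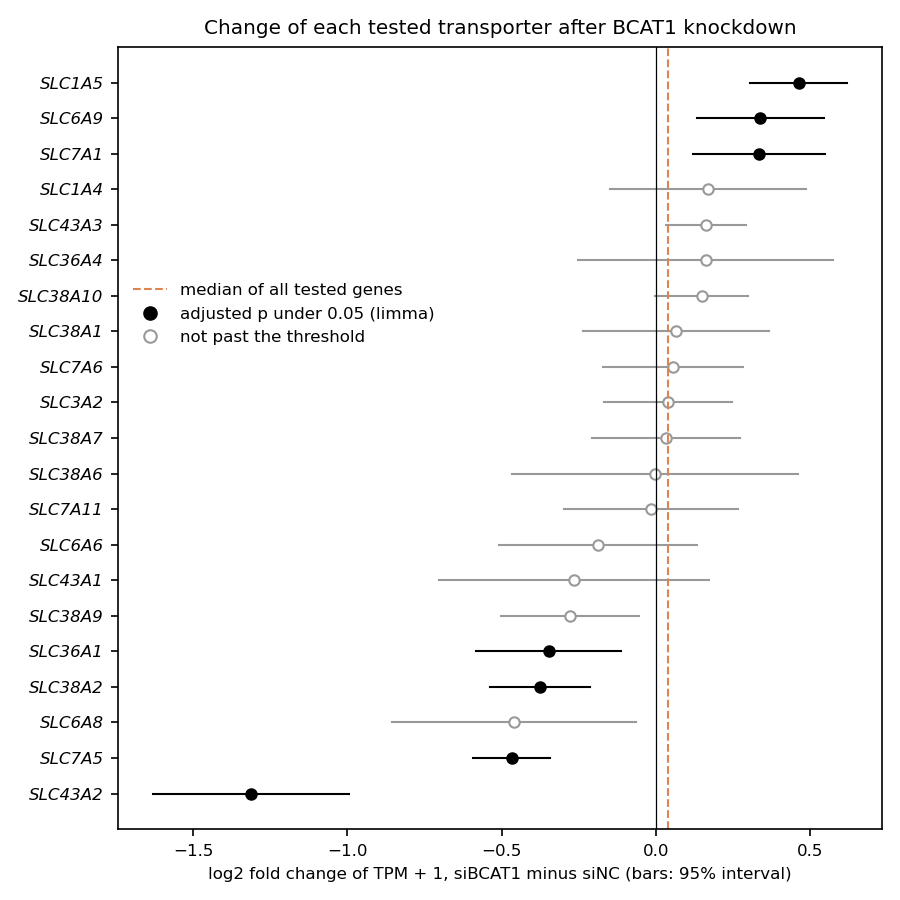
Log2 fold change of TPM + 1 of each tested transporter, siBCAT1 minus siNC, with its 95% interval from limma; filled points passed an adjusted p of 0.05 and the dashed line is the median of all tested genes. SLC1A5 stands at 0.46 and SLC43A2 at -1.31, and the intervals of SLC3A2 and SLC7A11 span 0.

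Of the heteromeric exchangers, the light chain SLC7A5 fell, while the heavy chain SLC3A2 and the light chains SLC7A6 and SLC7A11 were not called. SLC3A2 (4F2hc or CD98, ENSG00000168003, chr11:62856102-62888875, + strand) encodes the heavy chain that carries several light chains to the plasma membrane. It stood at 268, 325.5 and 286 TPM in siNC and at 274, 314 and 315 TPM in siBCAT1. The groups overlapped, with a mean of 293 ± 29.4 TPM against 301 ± 23.4 TPM (SD, n = 3) and a log2 fold change of 0.04 (SE 0.09, 95% interval -0.17 to 0.24, limma adjusted p = 0.786).

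SLC7A5 (LAT1, ENSG00000103257, chr16:87830023-87869488, - strand), the main light chain for leucine and other large neutral amino acids, stood at 305, 318 and 316 TPM in siNC. In siBCAT1 it stood at 219.6, 219.8 and 239 TPM, so that every siBCAT1 library lay below every siNC library. The mean fell from 313 ± 7.21 to 226 ± 11.1 TPM (SD, n = 3), to 0.723 of the siNC level, with a log2 fold change of -0.47 (SE 0.05, 95% interval -0.59 to -0.34, limma adjusted p = 0.00129). SLC7A5 has partial copies in the genome, of which SLC7A5P2 had a mean of 5.86 TPM and SLC7A5P1 of 2.66 TPM, and how reads shared between the copies were assigned is not given in the sources used here.

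The bases before the RefSeq start of SLC7A5 are shown because this gene is the most abundant of those that fell. The stretch lies on the - strand of chr16:87869488-87869657 (GRCh38.p14) and runs from 150 bases before the start to 20 bases after it. Capitals mark an E-box, CACGTG, the word bound by MYC and related factors, and a TGACNNNGC word, the core of the antioxidant response element.
SLC7A5: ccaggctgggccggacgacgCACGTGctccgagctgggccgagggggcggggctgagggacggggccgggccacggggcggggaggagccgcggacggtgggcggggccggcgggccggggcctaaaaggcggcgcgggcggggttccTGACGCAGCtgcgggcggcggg

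SLC7A6 (y+LAT2), the light chain that exchanges cationic for neutral amino acids, stood at 71.9, 79.97 and 73.3 TPM in siNC and at 86.7, 79.5 and 68.5 TPM in siBCAT1. Its groups overlapped and its log2 fold change was 0.05 (SE 0.10, 95% interval -0.17 to 0.28, limma adjusted p = 0.710). It overlaps SLC7A6OS on the opposite strand, which had a mean of 28.7 TPM. SLC7A11 (xCT, ENSG00000151012), the light chain that imports cystine in exchange for glutamate and so feeds glutathione synthesis, stood at 6.28, 5.70 and 5.65 TPM in siNC and at 6.39, 5.10 and 5.94 TPM in siBCAT1. Its log2 fold change was -0.02, with a 95% interval from -0.30 to 0.26 (limma adjusted p = 0.932). The other 5 light chains, SLC7A7, SLC7A8, SLC7A9, SLC7A10 and SLC7A13, lay under 1 TPM.

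The 8 light chains together summed to 384, 405 and 397 TPM in siNC and to 314, 305 and 315 TPM in siBCAT1, or 0.788 of the siNC mean. Ratios between members were chosen after their values were seen and are given as descriptions. The level of SLC7A5 over that of SLC3A2 was 1.14, 0.978 and 1.10 in siNC and 0.802, 0.700 and 0.760 in siBCAT1. The ratio passed from 1.07 ± 0.0836 to 0.754 ± 0.0514 (SD, n = 3) and its groups did not overlap. In contrast, SLC7A11 over SLC3A2 was 0.0202 ± 0.00299 in siNC and 0.0195 ± 0.00359 in siBCAT1, and SLC7A6 over SLC3A2 was 0.257 ± 0.0112 and 0.263 ± 0.0502, and both overlapped.

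Among the SLC43 carriers, which move BCAAs, methionine and phenylalanine by facilitated diffusion without a heavy chain, SLC43A2 fell further on the log2(TPM + 1) scale than any other of the 21 tested members. SLC43A2 (LAT4, ENSG00000167703, chr17:1569267-1628886, - strand) stood at 35.9, 26.6 and 35.8 TPM in siNC and at 12.2, 11.5 and 13.8 TPM in siBCAT1. The lowest siNC library was well above the highest siBCAT1 library. The mean fell from 32.8 ± 5.35 to 12.5 ± 1.19 TPM (SD, n = 3), to 0.382 of the siNC level, with a log2 fold change of -1.31 (SE 0.14, 95% interval -1.63 to -0.99, limma adjusted p = 0.000956). By its log2 fold change it ranked 209 from the bottom of the 14286 tested genes.

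The first of its 3 RefSeq starts, on the - strand at chr17:1628815-1628984 (GRCh38.p14), is shown for comparison with SLC7A5. None of the 3 words searched here lies in its 3 windows, so the stretch has no capitals.
SLC43A2: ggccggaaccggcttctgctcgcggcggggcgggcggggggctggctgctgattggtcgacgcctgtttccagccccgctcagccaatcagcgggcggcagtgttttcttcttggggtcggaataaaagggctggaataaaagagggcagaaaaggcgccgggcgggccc

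SLC43A1 (LAT3), the closest relative of SLC43A2 in substrate, stood at 9.79, 5.69 and 8.41 TPM in siNC and at 7.03, 5.72 and 6.23 TPM in siBCAT1. The groups overlapped, and its log2 fold change was -0.27 (SE 0.19, 95% interval -0.70 to 0.17, limma adjusted p = 0.333). SLC43A2 over SLC43A1 was 4.20 ± 0.507 in siNC and 1.99 ± 0.246 in siBCAT1 (SD, n = 3), without overlap. SLC43A3, which differs from both relatives in carrying purine nucleobases, was the fourth most abundant member. It stood at 114, 120.5 and 122 TPM in siNC and at 129.9, 131 and 137 TPM in siBCAT1, without overlap. Its mean was 119 ± 4.28 and 133 ± 3.87 TPM (SD, n = 3), with a log2 fold change of 0.16 (SE 0.06, 95% interval 0.03 to 0.29, limma adjusted p = 0.0695), and it was not called. SLC43A3 and SLC43A1 are neighbours on chromosome 11, 57 kb apart.

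The members known to carry BCAAs, counted with the heavy chains SLC3A1 and SLC3A2 of such carriers, were 13, of which 5 were tested. SLC7A5 and SLC43A2 fell, 0 were called higher, and SLC3A2, SLC7A6 and SLC43A1 were not called, where 10.4% of all tested genes were called lower and 16.7% higher. The median log2 fold change of the 5 was -0.27, against 0.04 over all tested genes. The 13 genes summed to 691, 757 and 722 TPM in siNC and to 601, 632 and 644 TPM in siBCAT1, without overlap. The mean of this sum passed from 724 to 626 TPM. Within it SLC7A5 passed from a mean of 313 to 226 TPM and SLC43A2 from 32.8 to 12.5 TPM. SLC3A2, also within it, had means of 293 and 301 TPM. SLC25A44, the carrier that brings BCAAs into mitochondria and belongs to another family, stood at 23.7 ± 2.57 and 26.1 ± 1.25 TPM (SD, n = 3) and was not called (log2 fold change 0.14, limma adjusted p = 0.347).

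Of the neutral amino acid carriers of the SLC1 family, SLC1A5 rose and SLC1A4 was not called. SLC1A5 (ASCT2, ENSG00000105281, chr19:46774883-46788594, - strand), the sodium-coupled exchanger that brings glutamine into many tumour cells, stood at 150.1, 154 and 156 TPM in siNC and at 207, 198 and 231 TPM in siBCAT1. Every siBCAT1 library lay above every siNC library. The mean rose from 153 ± 2.99 to 212 ± 17.0 TPM (SD, n = 3), 1.38 times the siNC level, with a log2 fold change of 0.46 (SE 0.07, 95% interval 0.31 to 0.62, limma adjusted p = 0.00317). Its relative SLC1A4 (ASCT1), which carries alanine, serine and cysteine, stood at 9.69, 6.86 and 8.09 TPM in siNC and at 9.95, 8.56 and 9.35 TPM in siBCAT1. It was not called (log2 fold change 0.17, 95% interval -0.15 to 0.49, limma adjusted p = 0.395). All 5 glutamate carriers of the family, SLC1A1, SLC1A2, SLC1A3, SLC1A6 and SLC1A7, lay under 1 TPM.

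SLC1A5 and SLC7A5 are often described as a pair, the first bringing in the glutamine that the second sends out in exchange for leucine, and their levels came closer together. SLC1A5 over SLC7A5 was 0.493, 0.483 and 0.495 in siNC and 0.941, 0.902 and 0.966 in siBCAT1. The share of SLC7A5 in the TPM of all 59 members was 24.0% ± 0.441 in siNC and 17.9% ± 0.468 in siBCAT1, and that of SLC1A5 was 11.8% ± 0.348 and 16.8% ± 0.970 (SD, n = 3).

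**Figure D3:**
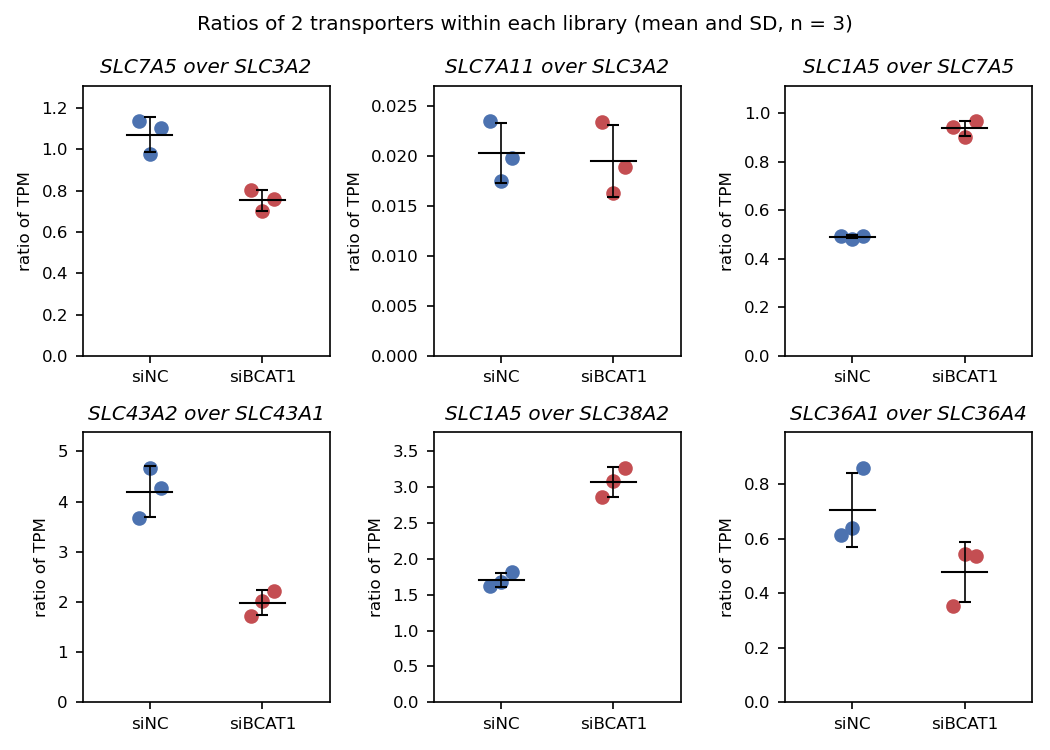
Ratios of the TPM of pairs of transporters in each library on linear axes from 0, blue for siNC and red for siBCAT1; horizontal lines are means and bars are SD over 3 libraries. SLC7A5 over SLC3A2 passes from a mean of 1.07 to 0.754 and SLC1A5 over SLC7A5 from 0.490 to 0.936 without overlap, while SLC7A11 over SLC3A2 overlaps.

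In the SLC38 family, which couples glutamine, alanine and other small neutral amino acids to sodium, 6 of 11 members were tested and SLC38A2 alone was called, where 27.1% of all tested genes were. SLC38A2 (SNAT2, ENSG00000134294, chr12:46358189-46372867, - strand), the member known to rise when cells are short of amino acids, stood at 92.7, 91.5 and 86.0 TPM in siNC and at 72.4, 64.5 and 70.7 TPM in siBCAT1. The groups did not overlap. The mean fell from 90.1 ± 3.57 to 69.2 ± 4.19 TPM (SD, n = 3), to 0.768 of the siNC level, with a log2 fold change of -0.38 (SE 0.07, 95% interval -0.54 to -0.22, limma adjusted p = 0.00774). SLC1A5 over SLC38A2, both entry routes for glutamine, was 1.70 ± 0.0999 in siNC and 3.07 ± 0.207 in siBCAT1 (SD, n = 3).

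SLC38A1 (SNAT1), the neighbour of SLC38A2 at 88 kb on chromosome 12, stood at 36.7, 43.5 and 30.5 TPM in siNC and at 39.2, 39.8 and 35.8 TPM in siBCAT1. The groups overlapped (log2 fold change 0.06, 95% interval -0.24 to 0.36, limma adjusted p = 0.748). SLC38A4, which follows on the same chromosome, had a mean of 0.01 TPM. SLC38A10 stood at 30.7, 30.7 and 31.2 TPM in siNC and at 33.5, 34.97 and 34.6 TPM in siBCAT1, higher without overlap but not called (log2 fold change 0.15, limma adjusted p = 0.130). SLC38A6 stood between 5.70 and 9.59 TPM in both groups (limma adjusted p = 0.994), and it overlaps TRMT5 on the opposite strand, which had a mean of 10.8 TPM.

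Lysosomal carriers were 5 of the members, of which 4 were tested and 1, SLC36A1, was called, a share near the 27.1% of all tested genes. SLC36A1 (PAT1, ENSG00000123643, chr5:151437046-151492381, + strand), which moves small amino acids out of the lysosome with protons, stood at 8.44, 8.07 and 8.12 TPM in siNC and at 5.82, 6.24 and 6.67 TPM in siBCAT1, without overlap. The mean fell from 8.21 ± 0.201 to 6.24 ± 0.425 TPM (SD, n = 3), to 0.760 of the siNC level, with a log2 fold change of -0.35 (SE 0.10, 95% interval -0.58 to -0.11, limma adjusted p = 0.0398). This call was lost when any 1 of the 6 libraries was left out. The limma adjusted p was 0.118, 0.0726 and 0.0922 without siNC replicates 1, 2 and 3, and 0.112, 0.102 and 0.0627 without siBCAT1 replicates 1, 2 and 3, with the log2 fold change negative each time.

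SLC36A4, its relative, stood at 13.8, 12.6 and 9.45 TPM in siNC and at 16.6, 11.5 and 12.5 TPM in siBCAT1, and overlapped (log2 fold change 0.16, 95% interval -0.25 to 0.57, limma adjusted p = 0.538). SLC38A9, the lysosomal arginine sensor upstream of mTORC1, stood at 11.2, 10.9 and 12.6 TPM in siNC and at 9.45, 9.02 and 9.51 TPM in siBCAT1. It was lower without overlap and was not called (log2 fold change -0.28, 95% interval -0.50 to -0.06, limma adjusted p = 0.0675). SLC38A7, which moves glutamine out of lysosomes, stood at 23.3, 25.8 and 21.6 TPM in siNC and at 26.0, 24.7 and 21.7 TPM in siBCAT1 (log2 fold change 0.03, limma adjusted p = 0.843). SLC36A2 and SLC36A3, which lie beside SLC36A1 on chromosome 5, had means of 0 and 0.00333 TPM.

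Of the cationic amino acid carriers, SLC7A1 was the only one of 5 with a mean of at least 1 TPM. SLC7A1 (CAT1, ENSG00000139514, chr13:29509410-29595688, - strand), which carries arginine, lysine and ornithine, stood at 17.8, 18.4 and 15.4 TPM in siNC and at 22.4, 22.2 and 21.1 TPM in siBCAT1, without overlap. The mean rose from 17.2 ± 1.60 to 21.9 ± 0.719 TPM (SD, n = 3), 1.27 times the siNC level, with a log2 fold change of 0.33 (SE 0.09, 95% interval 0.12 to 0.55, limma adjusted p = 0.0337). The call depended on single libraries. The limma adjusted p was 0.0793 and 0.0811 without siNC replicates 1 and 3, and 0.102, 0.102 and 0.0707 without siBCAT1 replicates 1, 2 and 3.

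The bases around the RefSeq start of SLC7A1 are shown because they hold the word TGATGNAA, the core of the response element that ATF4 binds together with a C/EBP factor. The stretch lies on the - strand of chr13:29595669-29595838 (GRCh38.p14), from 150 bases before the start to 20 after, and capitals mark TGACNNNGC first and TGATGNAA after the start.
SLC7A1: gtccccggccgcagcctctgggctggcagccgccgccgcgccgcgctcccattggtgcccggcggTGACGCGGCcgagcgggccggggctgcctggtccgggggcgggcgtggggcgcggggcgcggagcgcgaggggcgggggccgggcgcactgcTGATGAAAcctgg

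The SLC6 family, sodium- and chloride-coupled carriers of neurotransmitters, amino acids and related compounds, had the most members, 19, and 3 of them were tested. SLC6A9 (GlyT1, ENSG00000196517, chr1:43991500-44031467, - strand), a glycine carrier, stood at 17.2, 16.6 and 18.4 TPM in siNC and at 22.8, 20.5 and 23.5 TPM in siBCAT1, without overlap. The mean rose from 17.4 ± 0.925 to 22.3 ± 1.60 TPM (SD, n = 3), 1.28 times the siNC level, with a log2 fold change of 0.34 (SE 0.09, 95% interval 0.13 to 0.54, limma adjusted p = 0.0283). The limma adjusted p was 0.0886 and 0.0646 without siNC replicates 1 and 2, and 0.0897 and 0.0894 without siBCAT1 replicates 1 and 3.

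SLC6A8, which carries creatine, stood at 14.6, 12.5 and 12.8 TPM in siNC and at 11.9, 7.20 and 9.57 TPM in siBCAT1. It was lower without overlap and was not called (log2 fold change -0.46, 95% interval -0.86 to -0.06, limma adjusted p = 0.0845), and without siBCAT1 replicate 1 its limma adjusted p was 0.0466. SLC6A6, which carries taurine, stood at 24.0, 18.0 and 17.6 TPM in siNC and at 18.4, 17.9 and 15.3 TPM in siBCAT1, and overlapped (log2 fold change -0.19, limma adjusted p = 0.354). Neither of these substrates is built into protein.

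The nearly silent members were counted family by family. Under 1 TPM were 5 of 7 SLC1, 1 of 2 SLC3, 16 of 19 SLC6, 9 of 13 SLC7, 2 of 4 SLC36, 5 of 11 SLC38 and 0 of 3 SLC43 genes. Those listed at 0 in all 6 libraries were SLC7A3, SLC7A13, SLC6A5, SLC36A2, SLC38A3, SLC38A8 and SLC38A11. A further 20 had a value above 0 in at least 1 library and a mean under 0.1 TPM, and 11 had a mean between 0.1 and 1 TPM. Without the filter on low values, 31 of these 38 members could be fitted and limma called 0, with a lowest adjusted p of 0.0657, for SLC1A7, where 8.06% of the 31860 genes in that fit were called. At an unadjusted p under 0.05 there were 3 of these members, where 20.9% of the genes in that fit were under it. At these levels a TPM value rests on few reads, whose number is not known.

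The low members described here were chosen after their values were seen. SLC7A2, which carries arginine and lysine as SLC7A1 does, stood at 0.31, 0.41 and 0.40 TPM in siNC and at 0.74, 0.70 and 0.55 TPM in siBCAT1. SLC7A8 (LAT2), a further light chain for neutral amino acids, stood at 0.04, 0.04 and 0.26 TPM in siNC and at 0.37, 0.36 and 0.40 TPM in siBCAT1. SLC1A7, a glutamate carrier, stood at 0.88, 0.30 and 0.75 TPM in siNC and at 0.12, 0.05 and 0.03 TPM in siBCAT1. The groups of these genes did not overlap, and neither did those of SLC7A9 and SLC3A1. None of them was called. How often groups do not overlap over all genes of such low level was not counted, so no result is drawn from it. SLC3A1, the heavy chain that pairs with SLC7A9 in kidney and gut, stood at 0.22, 0.05 and 0.02 TPM in siNC and was listed at 0 in siBCAT1. SLC6A14, a broad carrier of neutral and cationic amino acids, stood at 0.04 to 0.18 TPM in 5 libraries and at 1.10 TPM in siBCAT1 replicate 1.

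**Figure D4:**
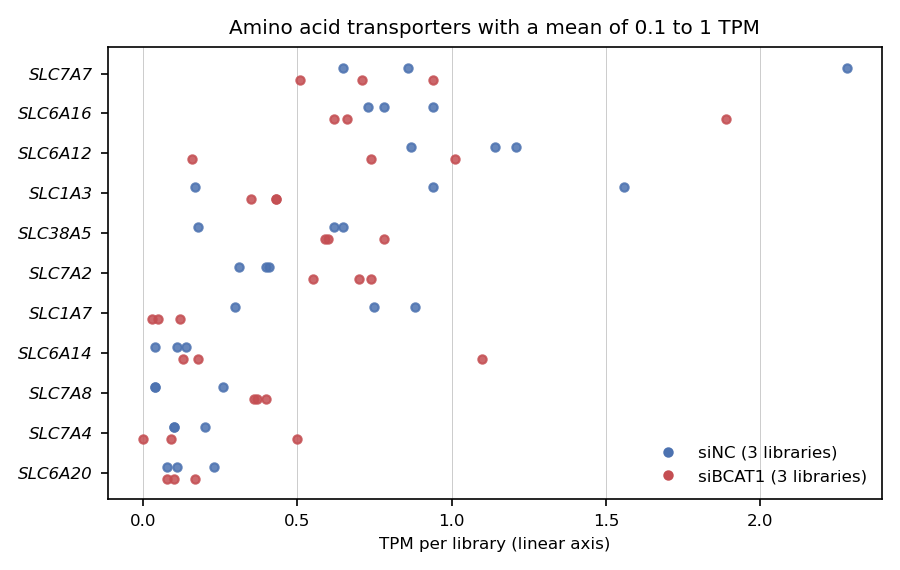
TPM per library of the 11 transporters with a mean between 0.1 and 1 TPM on a linear axis, blue for siNC and red for siBCAT1. Most groups overlap, with SLC7A2 and SLC7A8 higher and SLC1A7 lower in siBCAT1 without overlap, and single libraries stand apart for SLC7A7 (2.28 TPM), SLC6A16 (1.89 TPM) and SLC6A14 (1.10 TPM).

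Known targets of ATF4 were 9 of the members, of which 8 were tested. Of these SLC1A5, SLC6A9 and SLC7A1 rose, SLC7A5 and SLC38A2 fell, and SLC3A2, SLC7A11 and SLC1A4 were not called, with a median log2 fold change of 0.10 against 0.04 over all tested genes. These are 3 called higher and 2 called lower of 8, where 16.7% of all tested genes were called higher and 10.4% lower, and the members were chosen with results known. SLC7A3 was listed at 0.

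Genes that regulate or bind the carriers were 13, of which 11 were tested, 4 rose and 2 fell, where 16.7% of all tested genes were called higher and 10.4% lower. Their median log2 fold change was 0.24, against 0.04 over all tested genes. DDIT3 (CHOP), a transcription factor induced downstream of ATF4, stood at 12.8, 12.0 and 10.7 TPM in siNC and at 24.95, 21.5 and 26.5 TPM in siBCAT1 (log2 fold change 0.98, SE 0.11, limma adjusted p = 0.00119). CEBPG, a C/EBP factor that pairs with ATF4, rose from 15.6 ± 0.693 to 24.1 ± 1.85 TPM (SD, n = 3, limma adjusted p = 0.00342). ATF4 itself rose from 373 ± 23.0 to 447 ± 39.0 TPM (log2 fold change 0.26, limma adjusted p = 0.0451), and MYC, a known activator of SLC7A5 and SLC1A5, from 534 ± 31.8 to 721 ± 105 TPM (log2 fold change 0.43, limma adjusted p = 0.0209). NFE2L2 (NRF2), the activator of SLC7A11 in oxidative stress, fell from 63.2 ± 5.66 to 47.3 ± 4.67 TPM (limma adjusted p = 0.0220). SGK1, a kinase that raises the surface level of several carriers, fell from 31.5 ± 4.75 to 22.3 ± 2.35 TPM (limma adjusted p = 0.0295).

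The calls of ATF4, MYC, NFE2L2 and SGK1 depended on single libraries. Under the 15 alternatives listed below, left-out libraries among them, ATF4 lost its call 10 times, MYC 7, SGK1 5 and NFE2L2 3. For ATF4 these included median-ratio scaling (limma adjusted p = 0.1165), quantile normalization (0.0966) and GC content and length correction (0.0887). Median-ratio scaling removed the call of MYC as well (limma adjusted p = 0.0639). ATF4 had a limma adjusted p of 0.0801, 0.105 and 0.109 without siNC replicates 1, 2 and 3, and of 0.136 and 0.134 without siBCAT1 replicates 1 and 3. For MYC it was 0.0907, 0.0599 and 0.0502 without siNC replicates 1, 2 and 3 and 0.0623 without siBCAT1 replicate 1. NFE2L2 reached 0.0798 without siNC replicate 1 and 0.0643 without siBCAT1 replicate 2. SGK1 reached 0.0816 and 0.0574 without siNC replicates 1 and 2, and 0.104 and 0.0926 without siBCAT1 replicates 1 and 3. DDIT3 and CEBPG stayed called without each library in turn.

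Carriers of amino acids in other families were 23, of which 16 were tested, 1 rose and 2 fell, so that 3 of 16 were called where 27.1% of all tested genes were. Their median log2 fold change was 0.11. SFXN3, a serine carrier of mitochondria, fell from 42.0 ± 6.34 to 24.9 ± 2.50 TPM (SD, n = 3, log2 fold change -0.72, limma adjusted p = 0.00694), and its relative SFXN2 rose from 3.38 ± 1.28 to 6.24 ± 0.795 TPM (log2 fold change 0.76, limma adjusted p = 0.0394). SFXN1, the main mitochondrial serine carrier, stood at 93.3 ± 12.6 and 93.5 ± 13.9 TPM and was not called. MFSD12, needed for cysteine import into lysosomes and melanosomes, fell from 255 ± 22.1 to 203 ± 13.4 TPM (log2 fold change -0.33, limma adjusted p = 0.0226). SFXN2 lost its call without siNC replicates 2 and 3 (limma adjusted p = 0.0971 and 0.110) and without siBCAT1 replicates 1, 2 and 3 (0.113, 0.132 and 0.0781). MFSD12 lost its call without siNC replicates 1 and 3 (limma adjusted p = 0.0816 and 0.0723) and without siBCAT1 replicates 1 and 2 (0.0851 and 0.0830).

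RefSeq promoter windows, 250 bases before to 50 after each start on GRCh38.p14, were found for 18 of the 21 tested members, 32 windows in all. SLC43A3, SLC6A6 and SLC7A11 had none. The words TGATGNAA, CACGTG and TGACNNNGC were searched on both strands, and no word contains another. TGATGNAA was in 5 of the 32 windows (15.6%) against 3.62% of all 35116 windows, CACGTG in 5 (15.6%) against 7.26%, and TGACNNNGC in 5 (15.6%) against 13.3%. TGATGNAA lay in windows of SLC1A4, SLC1A5, SLC38A1, SLC3A2 and SLC7A1. Of these SLC1A5 and SLC7A1 rose and the others were not called. CACGTG lay in windows of SLC1A5, SLC36A1, SLC38A7, SLC43A1 and SLC7A5, of which 1 rose, 2 fell and 2 were not called. Over all tested genes 16.7% were called higher and 10.4% lower. The share called among all genes with each word was not counted, so the words are not linked to the calls. The windows of SLC38A2 and SLC6A9 held none of the words. A match is a description of the letters and not a binding site.

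The matches of TGATGNAA in 4 members, and of CACGTG in SLC1A5 and SLC36A1, are shown with up to 10 bases on either side along the strand of the gene, to show how the same word is set in genes that did and did not change. Capitals mark the word, which in SLC1A4 and SLC3A2 is read on the opposite strand. The stretches are chr19:46784894-46784921 (- strand) and chr19:46787328-46787353 (- strand) for SLC1A5, chr2:64989382-64989409 (+ strand) for SLC1A4, chr12:46266503-46266530 (- strand) for SLC38A1, chr11:62881726-62881748 (+ strand) for SLC3A2 and chr5:151447550-151447575 (+ strand) for SLC36A1. Every stretch shown here, in SLC1A5 and in the other genes, belongs to a RefSeq start inside the GENCODE span of its gene and not to the outermost start. The same window of SLC36A1 holds a further CACGTG, at chr5:151447585-151447610 with its flanks, which is not shown.
SLC1A5, TGATGNAA: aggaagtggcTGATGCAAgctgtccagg
SLC1A4, TGATGNAA: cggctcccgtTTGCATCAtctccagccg
SLC38A1, TGATGNAA: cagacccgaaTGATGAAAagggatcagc
SLC3A2, TGATGNAA: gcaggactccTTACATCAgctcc
SLC1A5, CACGTG: cgggagtggtCACGTGgacaggacgg
SLC36A1, CACGTG: ctcaagggagCACGTGacctcggcct

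The seed of the siRNA named siBCAT1 would pair with the word TTGAGCA. Among 3′ UTRs, read from a single transcript for each gene, 0 of the 21 tested members held this word, against 11.4% of 11672 tested genes. Other modes of binding by the siRNA were not tested.

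Genes on the opposite strand overlap further members, and whether reads were counted by strand is not given in the sources used here. SLC6A9 overlaps CCDC24, with a mean of 5.67 TPM, so its level can include some reads of the partner. SLC43A3 overlaps AP000781.2 on the same strand, which had a mean of 0.972 TPM. For SLC6A8 the copy SLC6A10P had a mean of 0.11 TPM.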

How the data were processed

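mRNA of 67R cells was measured by RNA-seq in 3 siNC and 3 siBCAT1 libraries, grouped by their labels. The deposited table holds TPM per gene for each library, with 2 decimals. The submitters' processing notes name fastp, HISAT2, StringTie and GRCh38, and versions and the use of strand in counting are not given in the sources used here. The unit was read from the values, which sum to nearly the same total in each library.

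The members were all genes whose symbol matched the 7 families. Members, gene lists and words searched in promoters were chosen with earlier results of these data known. Values were transformed to log2(TPM + 1), and the 14286 genes whose mean over 6 libraries reached 1 TPM were tested with limma 3.58.1 (R 4.3.3, two-sided, moderated by eBayes with a trend). P-values were adjusted by Benjamini-Hochberg over these genes, with a threshold of 0.05. All tested members were named, with full statistics for those called and for the 5 of highest mean. Of the regulators and other carriers those called were named, and SLC25A44, SFXN1 and the low members were named after their values were seen. The fit was tested on simulated data, with 200 of 14286 genes changed by 1 on the log2 scale. The changed genes were drawn only from genes at a higher level than the filter asks for. They were a smaller share of the genes than the 27.1% called in the data. Of the 200 changed genes, 84% were recovered, with 0 in the wrong direction, and recovery in the data can differ. Smaller changes were not simulated, while 20 of the tested members changed by under 0.5.

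The alternatives were no filter, a limit of 5 TPM, 0.1 as the pseudocount, a block for the replicate number, median-ratio scaling, quantile normalization, correction of GC content and length by loess (span 0.5), this correction with the block, eBayes without trend, and each library left out in turn. GC content could be had for 99.0% of tested genes, including all 21 tested members. The closest libraries differed at 98.6% of the tested genes. A result on an overlapping gene is not reported here. Promoter sequences are RefSeq's, gene positions and 3′ UTRs are those of GENCODE 29 on GRCh38, and Python 3.11.15 was used for these steps.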

Additional observations from a re-analysis of the deposited data

How the results depend on the processing

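BCAT1, SLC7A5, SLC1A5, SLC38A2 and SLC43A2 kept their direction and their call under all 15 alternatives, with log2 fold changes from -0.53 to -0.42 for SLC7A5, 0.36 to 0.51 for SLC1A5, -0.46 to -0.33 for SLC38A2 and -1.45 to -1.24 for SLC43A2, and adjusted p of at most 0.0112, 0.0213, 0.0362 and 0.0108. SLC6A9 and SLC7A1 each lost their call under 6 alternatives and SLC36A1 under 8, among them no filter on low values for all 3, median-ratio scaling for SLC6A9 and a mean of at least 5 TPM for SLC36A1, with the highest adjusted p at 0.0897, 0.102 and 0.118. SLC43A3 with the block (0.0483), SLC38A10 with the block and GC correction (0.0416), SLC6A8 with the block (0.0362) and SLC38A9 with the GC correction (0.0373) were called in addition.

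Members called higher numbered 3, and 1 without the filter and 1 to 2 with a library left out. All tested genes called higher numbered 2382 and lower 1483. The lower count was 960 without the filter, and with a library left out the counts ranged from 1435 to 2276 and from 796 to 1430, moving by over 1.5 times for at least 1 direction without any library but siNC replicate 2. The split was 1957 to 1802 with median-ratio scaling and 2042 to 1865 with quantile normalization. The median of all tested genes moved from 0.04 to -0.0063 with median-ratio scaling. Other carriers called higher numbered 1, and 0 without the filter and without the trend. They also numbered 0 with a mean of at least 5 TPM, where SFXN2, with a mean of 4.81 TPM, was not in the fit. They numbered 2 with the block alone and with the block and GC correction, and 0 to 1 with a library left out. Other carriers called lower numbered 2, and 1 without the filter, 1 without the trend and 1 to 2 with a library left out. Regulators called higher numbered 4, and 2 without the filter, with median-ratio scaling and without the trend, and 2 to 4 with a library left out; those called lower numbered 2, and 0 without the filter and 0 to 2 with a library left out. With a level limit of 0.5 or 5 TPM in place of 1, 27 or 21 members counted as expressed.

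Members with changes near 0 turned their sign. The log2 fold change of SLC3A2 was -0.011 with median-ratio scaling and -0.031 with quantile normalization, and -0.025 to 0.12 with a library left out. SLC7A6 was at -0.040 with quantile normalization and at -0.022 to 0.15 with a library left out. SLC38A1 was at -0.021 with quantile normalization, -0.011 with the GC correction, alone or with the block, and -0.063 to 0.19 with a library left out. SLC38A7 was at -0.014 with median-ratio scaling, -0.025 with quantile normalization and -0.026 to 0.10 with a library left out. SLC38A6 ranged from -0.16 to 0.17 with a library left out. SLC7A11 was at 0.014 with the GC correction, alone or with the block, and at -0.079 to 0.060 with a library left out. The cause of these differences was not tested.

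The replicate numbers were not taken to pair the libraries, since the labels give the number no meaning. The deviations of same-numbered libraries from their group means correlated at 0.0844, 0.102 and 0.124. Those of differently numbered libraries correlated at -0.0814 to -0.0134, so each library correlated best with its own number. Whether the number marks a pairing was not tested. With the replicate block, 2773 genes were called higher and 1795 lower, and 4 members were called higher.

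TPM values carry no counts, so no counting error can be given. Some members under 1 TPM, such as SLC7A7, had values above 0 in all 6 libraries. Which of the members under 1 TPM are silent was not tested and cannot be settled at this unknown depth.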
